A study of Rattus norvegicus with 9 samples.

Results

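The Fos and Jun family supplies the subunits of AP-1, the activator protein 1 transcription factor, and was followed here in the adrenal medulla of stressed rats. It was taken as 9 genes, the Fos-type genes Fos, Fosb, Fosl1 and Fosl2, the Jun-type genes Jun, Junb and Jund, and their leucine zipper relatives Atf3 and Maff. Every probe set of the array annotated to exactly 1 of these symbols was used, which gave 15 of the 20826 probe sets with a single gene symbol (9 of 14217 genes). A probe set is the group of oligonucleotides that reads 1 transcript on the array. Fos, Fosl2, Jun and Jund had several probe sets, and the other genes had 1 each.

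The adrenal medulla, the catecholamine-secreting core of the adrenal gland, came from adult Rattus norvegicus of 280 to 320 g. Control rats (3 arrays) were left unstressed, IMO_1x rats (3 arrays) were immobilized in 1 session of 2 h, and IMO_6x rats (3 arrays) in daily sessions of 2 h for 6 days. Tissue was taken after the last session, and biotin-labelled RNA was read on 9 Affymetrix oligonucleotide arrays, 1 intensity per probe set. The labels give no strain, sex or age in days and no genotype other than rat, and they do not say whether an array holds 1 animal, so p-values measure the spread between these arrays. Some label fields name mouse or brain, and the organism field was followed. The study asked how 1 and repeated immobilizations change gene expression in this tissue.

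AP-1 is a dimer. Within AP-1 a Fos protein pairs with a Jun protein to bind DNA, whereas Jun proteins can also pair with one another. In neuroendocrine cells many of these genes are classic immediate early genes, switched on within minutes of membrane depolarization, cAMP or growth factor signals. These signals act through response elements that CREB and the serum response factor occupy, and most of the mRNAs are short-lived. Fosb and Fosl2 products last longer than Fos, Junb and Jund can restrain Jun, Atf3 is a stress-induced repressor, and Maff is a small Maf protein without an activation domain.

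Array controls for RNA quality set the IMO_6x arrays apart, so 6 sessions and RNA quality cannot be told apart in any contrast with IMO_6x. The actin 3′/5′ ratio rises as labelled RNA loses its 5′ part. It lay between 1.45 and 2.15 on the 6 control and IMO_1x arrays and reached 231 on IMO_6x replicate 1, 6.11 on replicate 2 and 8.87 on replicate 3. Across probe sets IMO_6x replicate 1 had correlations of only 0.544 to 0.700 with the rest, and results that rest on it are given with and without it. The mean log2 level of 18 control probe sets for hybridization was 12.04 to 13.08 in control, 11.96 to 13.46 in IMO_1x and 14.04 to 17.52 in IMO_6x. The arrays have equal trimmed means all the same, and the part of this difference in the IMO_6x values was not tested. The summed intensity of 8 chromaffin cell markers was 291711 to 451554 in control, 282208 to 561756 in IMO_1x and 1017616 to 2363661 in IMO_6x. That of 9 adrenal cortex markers was 400367 to 578950, 338650 to 839475 and 1189762 to 2125887 in the same order, so the dissected samples held cortex RNA in all groups. After 6 sessions 5 of the 8 chromaffin and 6 of the 9 cortex markers were higher than control, and 0 of either lower (0 at an unadjusted p under 0.05). The sum of 6 Schwann cell markers was 22366 to 32449 in control, 27490 to 32681 in IMO_1x and 31131 to 42090 in IMO_6x. Without IMO_6x replicate 1 its lowest IMO_6x value was 39790, above both other groups. The sum of 6 endothelial markers was 45760 to 54472, 40444 to 45807 and 40825 to 45607 in the same order, and that of 7 leukocyte markers 39999 to 46049, 41477 to 44378 and 44541 to 56014. Of the tested leukocyte markers 2 of 5 were lower after 6 sessions, as were 1 of 6 Schwann cell and 1 of 6 endothelial markers. In these 3 lists 0 were called higher, though 2 Schwann cell and 1 leukocyte marker were at an unadjusted p under 0.05. Over all genes 9.64% were higher and 14.8% lower after 6 sessions, so 1 of 6 is near the share of all genes. No marker of any list was at 0. The part of these differences in the results below was not tested, and in bulk tissue fewer cells of a type and less RNA per cell cannot be told apart.

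The promoters of 6 of the 9 genes had an entry in RefSeq's rat assembly GRCr8. The 250 bases before the annotated start were searched on both strands for the cAMP response element (CRE) TGACGTCA, its core site TGACG, the AP-1 site TGANTCA and the serum response element (CArG box). These are the elements through which textbook inducers of the family act. The 4 promoters that held any of them are printed 5′ to 3′ on the gene's strand with the matches in capitals.
Maff promoter: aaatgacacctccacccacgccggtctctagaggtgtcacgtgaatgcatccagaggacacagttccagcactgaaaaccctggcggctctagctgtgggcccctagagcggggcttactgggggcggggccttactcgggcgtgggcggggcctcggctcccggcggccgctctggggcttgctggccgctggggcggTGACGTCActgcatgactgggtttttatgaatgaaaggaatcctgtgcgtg
Jund promoter: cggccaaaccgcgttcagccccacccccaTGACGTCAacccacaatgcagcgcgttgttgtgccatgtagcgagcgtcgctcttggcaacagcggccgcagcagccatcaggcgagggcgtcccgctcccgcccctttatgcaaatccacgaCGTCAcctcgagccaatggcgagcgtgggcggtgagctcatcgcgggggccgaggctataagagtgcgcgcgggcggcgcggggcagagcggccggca
Junb promoter: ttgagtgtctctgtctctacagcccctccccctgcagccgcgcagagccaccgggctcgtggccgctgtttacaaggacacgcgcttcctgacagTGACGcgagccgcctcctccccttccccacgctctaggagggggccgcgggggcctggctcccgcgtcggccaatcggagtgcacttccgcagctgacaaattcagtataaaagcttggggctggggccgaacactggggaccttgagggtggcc
Fosl1 promoter: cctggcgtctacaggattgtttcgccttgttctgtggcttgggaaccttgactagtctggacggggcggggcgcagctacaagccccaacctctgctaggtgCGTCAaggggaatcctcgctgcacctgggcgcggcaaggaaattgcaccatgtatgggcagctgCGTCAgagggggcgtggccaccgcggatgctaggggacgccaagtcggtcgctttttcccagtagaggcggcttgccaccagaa
The Maff window lies at chr7:112792537-112792786 on the plus strand, with its CRE starting 51 bases before the start of the gene, and the core sites 51 and 48 bases before it lie inside the CRE. The Jund window is chr16:18769772-18770021 on the minus strand and has its CRE 221 bases before the start. Core sites 221 and 218 bases before the start overlap that CRE, and another lies at 98. The Junb window, chr19:40080876-40081125 on the plus strand, holds a core site at 155. The Fosl1 window, chr1:212183635-212183884 on the plus strand, holds core sites at 148 and 84, both on the opposite strand. Of 33465 rat promoter windows of this length, 1.59% hold the CRE, 18.2% the core site, 6.34% the AP-1 site and 1.5% the CArG box. The windows of Fosb and Fosl2 held none of the 4 motifs, and the AP-1 site and the CArG box were in 0 of the 6 windows. Maff, which rose after 1 session, and Jund, which did not pass the test there, both carry a full CRE. A match is a description of the letters and no evidence of binding.

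A single immobilization raised 7 of the 9 genes, Fos, Fosb, Fosl1, Fosl2, Junb, Atf3 and Maff, while Jun and Jund did not pass the test. The log2 rises ran from 1.63 to 7.35, and every rise separated the 3 stressed from the 3 control arrays. By limma with Benjamini-Hochberg adjustment over 14578 probe sets, 8 of the 13 tested member probe sets rose and 0 fell (0 at an unadjusted p under 0.05 as well). Among all probe sets tested 7.98% passed, 3.96% upward and 4.03% downward, and the median log2 fold change was -0.12. Groups without overlap lay above control for 9 of the 13 and below it for 0, against 13.7% and 27% of all probe sets. The other 2 member probe sets, 1371283_at of Fos and 1375768_at of Jund, lay among the dimmest 30% and were not tested. Of the 13 that were, Fosb, Fosl1, Atf3 and Maff had control means under that limit and passed through the stressed arrays, so the count does not stand for all members.

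**Figure D1:**
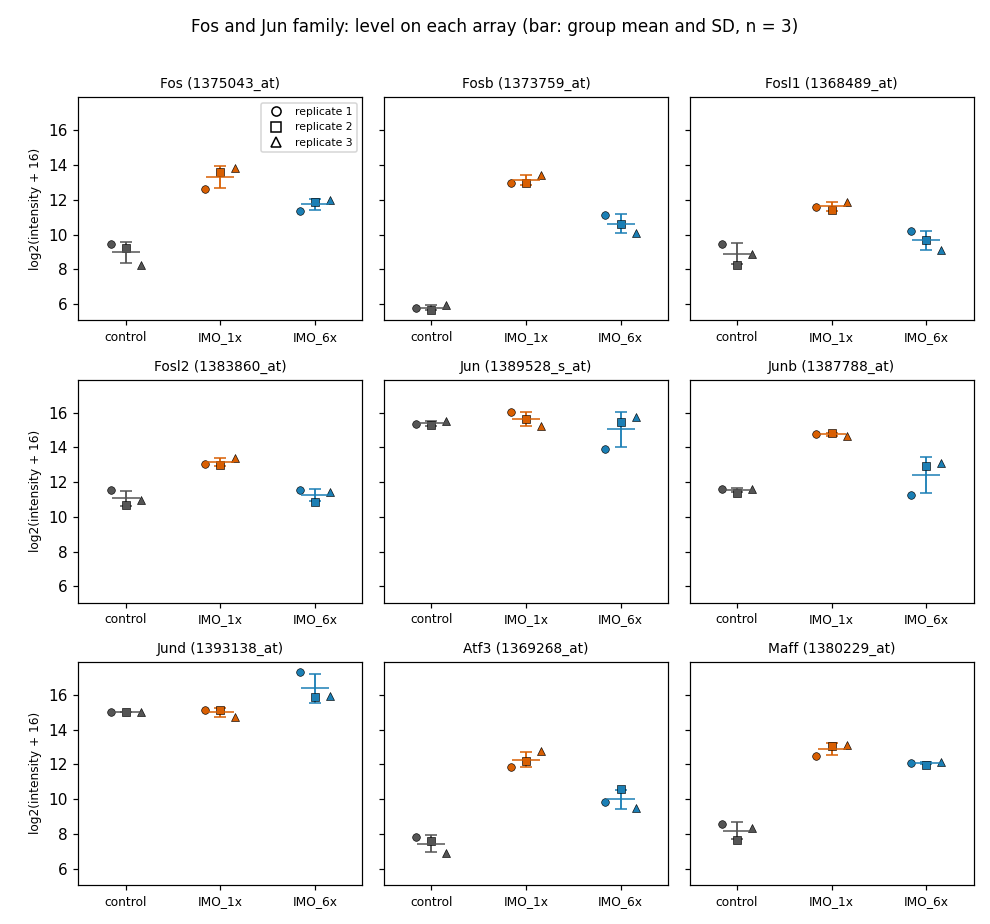
Level of the brightest probe set of each of the 9 genes on each array, as log2(intensity + 16), in control, IMO_1x and IMO_6x, with circles, squares and triangles for replicates 1, 2 and 3 and bars for the group mean and SD (n = 3). Fosb climbs from a control mean of 5.80 to 13.15 in IMO_1x and 10.63 in IMO_6x, while Jund has a control mean of 15.03 and an IMO_6x mean of 16.38.

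Among the Fos-type genes, Fosb had the largest fold change of the family. Its probe set 1373759_at read 39.3, 34.5 and 45.4 in control replicates 1 to 3 and 8133, 8073 and 11293 in IMO_1x. The control arrays were near the bottom of the scale and all 3 IMO_1x arrays were far above them. The log2 level went from 5.80 ± 0.14 to 13.15 ± 0.28 (SD, n = 3), a rise of 7.35 ± 0.35 (SE, limma adjusted p = 1.37e-05). Because the control values are so low, the size depends on the constant of 16 added before logs, with 6.46 to 7.80 over the settings tried.

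Fos, the founding member whose protein pairs with Jun, was read by 1375043_at at 686.9, 574.4 and 290.8 in control and at 6299, 12288 and 14407 in IMO_1x. No stressed array reached down to the control range. The log2 rise was 4.37 ± 0.39 (SE, limma adjusted p = 0.000248), which is 20.7-fold on this scale. The dim second probe set of Fos, 1371283_at, read 338.6, 53.5 and 57 in control and 547.5, 71 and 47.6 in IMO_1x, and its groups overlapped.

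Fosl1 and Fosl2 encode the Fos-related antigens Fra-1 and Fra-2, which lack the transactivation domain of Fos. Fosl1 (1368489_at) read 700.2, 293.6 and 464.6 in control and 3119, 2695 and 3786 in IMO_1x. It rose by 2.75 ± 0.40 on the log2 scale (SE, limma adjusted p = 0.00342), without overlap between the groups. Fosl2 read 2983, 1627 and 1990.4 in control and 8328.5, 8276 and 10896.5 in IMO_1x by 1383860_at. This probe set rose by 2.08 ± 0.28 and its partner 1387530_a_at by 1.63 ± 0.26 (SE, limma adjusted p = 0.00208 and 0.00503). Both probe sets of Fosl2 thus placed all stressed arrays above all control arrays.

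The Jun-type genes differed from one another. Junb, which forms AP-1 dimers with weaker activating power than Jun on many sites, read 3071, 2673 and 3150.0 in control and 28079, 29601 and 26029.5 in IMO_1x by 1387788_at. The 3 arrays of each group lay close together, and Junb rose by 3.23 ± 0.42 (SE, limma adjusted p = 0.00175), 9.38-fold. Jun itself, the strongest activator of the Jun proteins, was bright in all groups. Its brightest probe set 1389528_s_at read 42156, 39444 and 46639 in control and 66286, 50721 and 39129.6 in IMO_1x, with overlapping groups and a log2 fold change of 0.25 ± 0.44 (adjusted p = 0.871). A second probe set, 1374404_at, read 15068, 13311 and 20579 in control and 31466, 35229 and 30181.5 in IMO_1x. Its groups did not overlap, but its log2 fold change of 1.01 ± 0.49 did not pass (adjusted p = 0.296). In the fit without IMO_6x replicate 1, which shares 1 estimate of the spread over the groups, this probe set passed with the same fold change, and it also passed in the fit of control and IMO_1x alone. The third, 1369788_s_at, had 0.13 ± 0.22 (adjusted p = 0.874).

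Jund, known as the constitutive member of the Jun group, read 32894.5, 33392 and 33717 in control and 35362, 36691 and 27032 in IMO_1x by 1393138_at. The control arrays agreed closely and the stressed arrays lay on both sides of them, with a log2 fold change of -0.03 ± 0.37 (adjusted p = 0.996). The dimmer 1387762_s_at ranged from 368.7 to 1122.5 in control and from 503.8 to 1488 in IMO_1x, with a log2 fold change of 0.20 ± 0.65 (adjusted p = 0.952).

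Atf3, a bZIP factor of the ATF group that pairs with Jun proteins, read 209.1, 178.3 and 102.2 in control and 3743.5, 4737 and 6921 in IMO_1x by 1369268_at. It rose by 4.85 ± 0.41 (SE, limma adjusted p = 0.000183), 28.8-fold, and all stressed arrays lay far above the control arrays. Maff, whose protein dimerizes with Fos, itself or CNC factors, read 366.9, 181.3 and 305.4 in control and 5783, 8538.5 and 9041 in IMO_1x by 1380229_at. It rose by 4.73 ± 0.29 (SE, limma adjusted p = 3.01e-05), 26.4-fold. Each of the 8 rises stayed past the threshold under every alternative in which its probe set was tested.

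After 6 daily sessions, Fos, Fosb, Atf3 and Maff were still above control, Fosl1 and Fosl2 did not pass the test, and the call of Junb depended on 1 array. Of the 13 tested probe sets 5 rose and 0 fell against control (0 at an unadjusted p under 0.05 as well), with Jund the fifth gene. Quantile normalization gave 4 rises and 1 fall, that of Jun 1389528_s_at, leaving out IMO_6x replicate 1 gave 7 rises and 0 falls, and both together 6 and 1. Among all probe sets 24.1% passed, 8.81% upward and 15.3% downward, with a median log2 fold change of -0.28. Groups without overlap lay above control for 6 of the 13 and below it for 0, against 14.5% and 28% of all probe sets. The actin 3′/5′ ratios of these arrays were 6.11 to 231 as given above, and their part in these values was not tested.

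**Figure D2:**
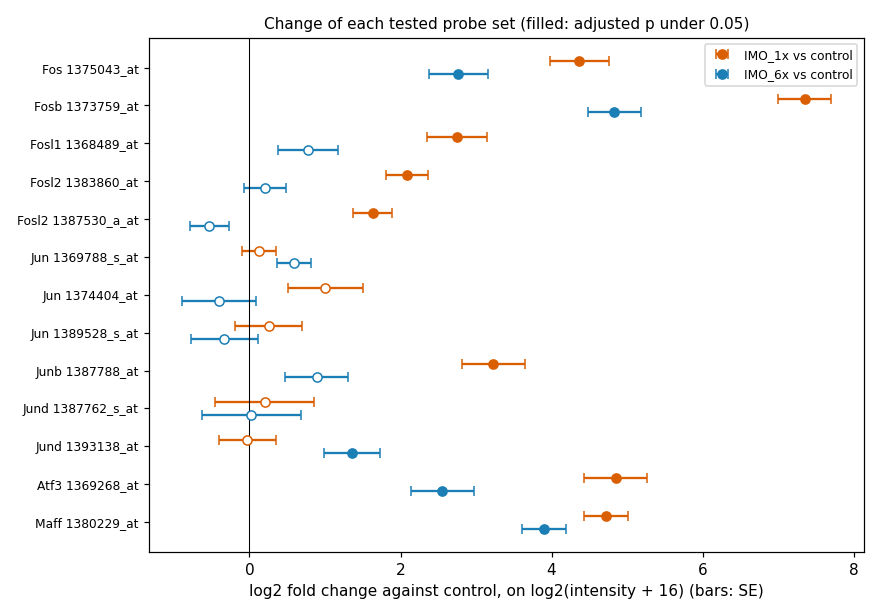
Log2 fold change against control of the 13 tested probe sets after 1 session (orange) and after 6 sessions (blue), on log2(intensity + 16), with SE bars and filled circles where the adjusted p was under 0.05. Fos, Fosb, Atf3 and Maff are filled at both times, Fosl1, Fosl2 and Junb only after 1 session, and 1393138_at of Jund only after 6. A filled circle beside an empty one is not itself a test of the difference.

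Fosb read 2271, 1580.2 and 1068 in IMO_6x replicates 1 to 3, every array far above the highest control value of 45.4. It stood 4.83 ± 0.35 above control (SE, limma adjusted p = 9.62e-05), with 3.98 to 5.27 over the settings tried, a size that again depends on the added constant. Fos by 1375043_at read 2646, 3711 and 4000.3, 2.76 ± 0.39 above control (adjusted p = 0.00192). Atf3 read 915.7, 1541 and 707.4 and was 2.56 ± 0.41 higher (adjusted p = 0.00331), again with no array in the control range. Maff read 4366, 4070.1 and 4441, the tightest group of the 4 genes, and was 3.89 ± 0.29 higher (adjusted p = 0.000106). These 4 genes passed in every alternative in which they were tested, among them quantile normalization and the fit without IMO_6x replicate 1.

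Fosl1 read 1170, 806.3 and 533.4 in IMO_6x, and its lowest array lay inside the control range. Its log2 fold change of 0.78 ± 0.40 did not pass (adjusted p = 0.185). It passed in 1 of 19 alternatives, quantile normalization without IMO_6x replicate 1 (1.01, adjusted p = 0.0369). For Fosl2 the readings of 2931, 1866 and 2752 by 1383860_at overlapped control, with a log2 fold change of 0.21 ± 0.28 (adjusted p = 0.609). The other probe set of Fosl2, 1387530_a_at, read 1150.3, 1423 and 1836 and gave -0.53 ± 0.26 (adjusted p = 0.159). Both probe sets of Fosl2 overlapped control, and their fold changes differ in sign.

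Junb read 2404.5, 7923.5 and 8719 in IMO_6x replicates 1, 2 and 3. Replicate 1, the array with the highest 3′/5′ ratios, lay below all control arrays and the other 2 lay above them. With all arrays the log2 fold change was 0.89 ± 0.42 and did not pass (adjusted p = 0.147), and without that replicate it was 1.49 and passed (adjusted p = 6.71e-05). Array weights, which lower the say of a deviant array, gave 1.48.

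Jund by 1393138_at read 163827, 59335 and 64010 in IMO_6x against at most 33717 in control. All 3 arrays were above control and replicate 1 was the highest by far. The log2 fold change was 1.36 ± 0.37 (SE, limma adjusted p = 0.0277) and 0.89 without replicate 1 (adjusted p = 0.00158). The call rests on the scaling, since quantile normalization gave 0.29 (adjusted p = 0.378), and 0.01 (adjusted p = 0.957) without replicate 1. It also missed the threshold without control replicate 1, 2 or 3 (adjusted p = 0.0818, 0.0820 and 0.0869) and in the fit of the 2 groups alone (0.0738). The other tested probe set of Jund, 1387762_s_at, read 1451, 319.8 and 672.2 in IMO_6x and stood 0.03 ± 0.65 from control on the log2 scale (adjusted p = 0.982).

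Jun by 1389528_s_at read 15358, 45436 and 55318 in IMO_6x, and by 1374404_at 4673, 17211.5 and 22169. In both, replicate 1 was below all control arrays. Their log2 fold changes were -0.34 ± 0.44 and -0.40 ± 0.49 (adjusted p = 0.613 and 0.582), and 0.23 and 0.28 without replicate 1 (adjusted p = 0.387 and 0.258). With quantile normalization 1389528_s_at was called lower, at -0.98 (adjusted p = 0.0265) with all arrays and -0.62 (adjusted p = 0.00414) without replicate 1, so its direction rests on the arrays and the scaling used. The third probe set 1369788_s_at read 44134, 45498 and 52484, all above its control range. Its log2 fold change of 0.59 ± 0.22 did not pass (adjusted p = 0.0825). It passed without replicate 1 (0.64, adjusted p = 0.0135) and with array weights (0.58, adjusted p = 0.00522), while quantile normalization turned it to -0.11.

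IMO_6x against IMO_1x compares the levels after 6 sessions with those after 1. No array shows the level just before the last of the 6 sessions, so the response to that session alone was not measured. RNA quality also differed between these groups, as given above. The mean IMO_6x intensity was 17.9% of the IMO_1x mean for Fosb, 20.6% for Atf3, 22.7% for Junb, 26.1% for Fosl1 and 31.4% for Fos. For Fosl2 it was 27.4% by 1383860_at and 22.3% by 1387530_a_at, and for Maff 55.1%. For Jun it was 74.4% by 1389528_s_at, 45.5% by 1374404_at and 138% by 1369788_s_at. The tested probe sets of Jund gave 290% by 1393138_at and 93.9% by 1387762_s_at. All these means include IMO_6x replicate 1. For Junb that array read 2404.5 against 7923.5 and 8719 on the other arrays. For Jun it read 15358 against 45436 and 55318 by 1389528_s_at, and 4673 against 17211.5 and 22169 by 1374404_at. For Jund it read 163827 against 59335 and 64010 by 1393138_at. Without it the log2 fold changes between the stressed groups were -0.02 for Jun 1389528_s_at, -0.72 for Jun 1374404_at and 0.91 for Jund 1393138_at. In the fit of all 9 arrays 7 of the 13 probe sets were lower in IMO_6x, 1 was higher and 5 did not pass, while of all probe sets 10.3% passed, 5.62% lower and 4.71% higher, with a median of -0.14.

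Fosb fell by 2.52 on the log2 scale between the stressed groups (SE 0.35, adjusted p = 0.0101), and none of its arrays overlapped. Junb changed by -2.34 ± 0.42 (adjusted p = 0.015), and by -1.74 without IMO_6x replicate 1 (adjusted p = 0.000639). Atf3 changed by -2.29 ± 0.41 (adjusted p = 0.0153). Fosl1 gave -1.97 ± 0.40 (adjusted p = 0.0199) and Fos -1.60 ± 0.39 (adjusted p = 0.0338). The probe sets of Fosl2 gave -1.87 ± 0.28 and -2.17 ± 0.26 (adjusted p = 0.0108 and 0.00972). Maff, with -0.83 ± 0.29, did not pass (adjusted p = 0.0962), although its highest IMO_6x array of 4441 lay under its lowest IMO_1x array of 5783, and it passed with array weights (-0.95, adjusted p = 0.00243). Without overlap, IMO_6x lay below IMO_1x for 9 of the 13 and above it for 2, against 20.6% and 14.8% of all probe sets. Jund by 1393138_at was 1.38 ± 0.37 higher in IMO_6x (adjusted p = 0.0461), and 0.91 higher without IMO_6x replicate 1 (adjusted p = 0.00313). Quantile normalization gave 0.57 and did not pass (adjusted p = 0.150). The call held in 8 of the 20 alternatives. Jun by 1374404_at, at -1.41 ± 0.49, did not pass with all arrays (adjusted p = 0.0962), but was called lower without IMO_6x replicate 1 (-0.72, adjusted p = 0.022), with quantile normalization (-1.62, adjusted p = 0.0489) and with both. Jun 1389528_s_at was called lower with quantile normalization (-1.19, adjusted p = 0.0358), and 1369788_s_at higher without that array (0.51, adjusted p = 0.0476).

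The calls between the stressed groups changed more with the arrays used than those against control. Of the 8 called probe sets all kept their direction, but 5 remained past the threshold without IMO_1x replicate 1, 1 without replicate 2 and 0 without replicate 3. In the fit of the 2 groups alone 0 of 13 passed, with adjusted p from 0.0538 to 0.143 for the 8, and 0 of all 14578 probe sets did either, although 10 member probe sets and 3259 in all had an unadjusted p under 0.05. In the fit of 3 groups without IMO_6x replicate 1, 8 member probe sets were lower and 2 higher. With the replicate number as a block, Fos (adjusted p = 0.0563) and Jund (0.0568) no longer passed, while the other 6 did. Median centring lost the calls of Fos (adjusted p = 0.0959) and Junb (0.0589).

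With the high 3′/5′ ratios of the IMO_6x arrays, probe sets of one gene need not move alike. For each array the level of a probe set was taken relative to the brightest one of its gene, and the change of that difference against control was tested exactly over the arrays. With 3 arrays against 3 the smallest p is 0.1, so none of the 12 tests could pass (adjusted p of 0.133 to 0.8). For Fosl2 the difference of 1387530_a_at from 1383860_at changed by -0.45 in IMO_1x and by -0.74 in IMO_6x (exact permutation p = 0.1 in both). For Jun, 1374404_at gained 0.75 on 1389528_s_at in IMO_1x (exact permutation p = 0.1) and -0.07 in IMO_6x (exact permutation p = 0.8). Both of these probe sets of Jun were low on IMO_6x replicate 1, whereas 1369788_s_at gained 0.92 on 1389528_s_at in IMO_6x. The probe sets ending in _s_at can read more than 1 transcript.

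The probe sets of Jund read differently from one another in IMO_6x. In IMO_6x, 1387762_s_at lost 1.33 on 1393138_at (exact permutation p = 0.1), and with quantile normalization this difference was 0.0504. The dim 1375768_at read 50.7, 34.5 and 28.7 in control, 110.1, 81.9 and 55.2 in IMO_1x and 1323, 105.7 and 412.1 in IMO_6x. Its IMO_6x arrays all lay above control, replicate 1 by far the highest, but the control values are near the bottom of the scale and no fold change is given. The dim probe set of Fos read 248.9, 26.7 and 242.3 in IMO_6x, overlapping control, while 1375043_at of the same gene did not.

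**Figure D3:**
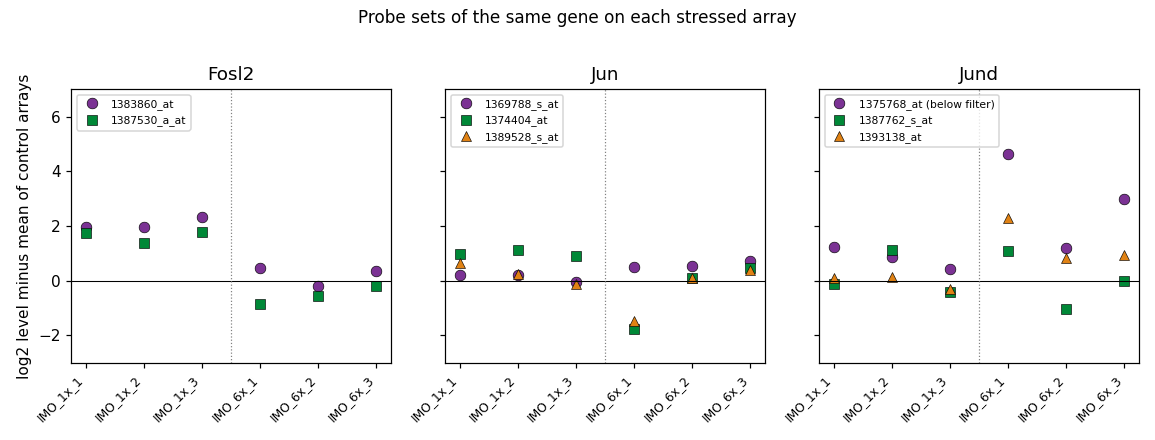
Log2 level of each probe set of Fosl2, Jun and Jund on each stressed array minus the mean of the 3 control arrays. Both probe sets of Fosl2 lie above the control mean in IMO_1x, with 1387530_a_at the lower one on each array. In IMO_6x replicate 1, 1374404_at and 1389528_s_at of Jun drop where 1369788_s_at does not. The probe sets of Jund spread apart in IMO_6x.

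Other bZIP factors, which can pair with Fos and Jun proteins or compete for their sites, moved in part. Of 24 tested genes 5 rose and 1 fell after 1 session, and 5 rose and 1 fell after 6. Over all 10633 genes 4.08% rose and 4.87% fell after 1 session, and 9.64% and 14.8% after 6, while 5.35% were higher and 4.64% lower in IMO_6x than in IMO_1x. The list's median log2 fold changes were 0.21 and -0.14, against -0.13 and -0.23 over all genes. Nfil3, a repressor of clock and cytokine genes, rose by 4.37 ± 0.24 and stood 4.10 above control after 6 sessions. Crem, whose short ICER products repress CRE-driven genes including Fos, rose by 4.30 ± 0.29 and then stood 5.55 above control. Between the stressed groups Crem was 1.25 ± 0.29 higher in IMO_6x (adjusted p = 0.0291), though -0.09 with quantile normalization (adjusted p = 0.649). A link between the levels of Crem and Fos was not tested. Mafk, another small Maf, rose by 1.16 ± 0.22 after 1 session, and the only fall was that of Dbp, a clock-controlled activator, at -1.98 ± 0.51. With quantile normalization 6 genes of the list rose and 0 fell after 1 session, so the call of Dbp rests on the scaling. After 6 sessions Atf6, a sensor of protein folding stress, was 1.43 ± 0.30 higher. Its log2 level was 14.647 on IMO_6x replicate 1, 13.479 and 13.624 on the other IMO_6x arrays and 12.317 to 12.655 in control. Nfe2l1, a partner of small Maf proteins, was lower after 6 sessions, at -1.32 ± 0.21. Without IMO_6x replicate 1, 8 bZIP genes rose and 4 fell after 1 session, and 9 rose and 4 fell after 6.

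Of 22 kinases and factors upstream of the family, 2 rose and 4 fell after 1 session, and 3 rose and 7 fell after 6. Their medians were -0.06 and -0.34. Stat3, which drives Fos through its sis-inducible element, rose by 1.54 ± 0.23 and stood 1.56 above control after 6 sessions. Srf, the serum response factor that binds the Fos promoter, rose by 0.72 ± 0.17 after 1 session (adjusted p = 0.0309). After 6 sessions Srf was 0.65 below control (adjusted p = 0.0226), and the difference between the stressed groups was -1.37 ± 0.17 (adjusted p = 0.00972), the only call of this list there. Map3k1, a kinase upstream of JNK, was at -1.002 ± 0.22 and -1.53, and Mef2c, a factor that acts on the Jun promoter, at -2.13 ± 0.36 after 6 sessions. The other 8 listed genes were not analysed here. Without IMO_6x replicate 1, 4 genes of the list rose and 6 fell after 1 session, and quantile normalization gave 2 and 1.

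Of 18 genes described as AP-1 targets, 7 rose and 0 fell after 1 session (0 fell at an unadjusted p under 0.05), with a median of 0.90. Ptgs2, the inducible cyclooxygenase, rose by 4.04 ± 0.54, Procr, the protein C receptor, by 2.39 ± 0.32 and Ccl2, a monocyte chemokine, by 2.71 ± 0.38. The 18 were those tested of 23 on the array, since probe sets with a mean log2 level under 8.93 were dropped. Ptgs2, Plaur and Hbegf, which rose, lay under that limit on every control array and passed it through their stressed arrays. The count therefore does not stand for all listed targets. After 6 sessions 4 rose and 2 fell, with a median of 0.40. Procr and Ptgs2 were then 2.12 and 2.42 above control, and Plau, the urokinase gene, was lower at -1.03 ± 0.30. Between the stressed groups 4 were lower in IMO_6x and 0 higher (1 higher at an unadjusted p under 0.05), against 4.64% and 5.35% of all genes. Ccl2 had a log2 fold change of -2.22 ± 0.38 there and Hmox1, haem oxygenase 1, one of -2.21 ± 0.45. Without IMO_6x replicate 1, 7 targets were lower and 2 higher between the stressed groups.

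Of 14 chromaffin cell genes with described AP-1 or CRE-like sites, 3 rose after 1 session and 12 after 6, with 0 falling in either (0 at an unadjusted p under 0.05). The 3 were Calca, the precursor of calcitonin gene-related peptide, at 5.07 ± 0.34, Nts, the neurotensin precursor, at 4.81 ± 0.58 and Vgf, a secretory granule peptide precursor, at 4.06 ± 0.50. After 6 sessions they stood 4.66, 6.03 and 4.38 above control. All 14 genes of this list were tested, so no listed gene was lost to the filter for dim probe sets. Calca still lay under the filter limit of 8.93 on every control array. Nts, at 9.439, 8.725 and 6.766 on the control arrays, lay partly under it. The medians of the list were 0.67 and 2.16, and 5 of its genes are also chromaffin markers, whose summed intensity was higher in IMO_6x. With quantile normalization 9 rose after 6 sessions, the median was 1.19, and Dbh, the enzyme that makes noradrenaline, was at 0.31 (adjusted p = 0.170) in place of 2.17. Without IMO_6x replicate 1, 7 of the 14 rose after 1 session.

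Of 21 other immediate early genes, 16 rose and 0 fell after 1 session (0 fell at an unadjusted p under 0.05), and 14 rose and 1 fell after 6. Their medians were 1.67 and 1.47, while the 9 Fos and Jun genes, each by its brightest probe set, had medians of 3.23 and 1.36. The 21 were those tested of 23 on the array. Ccn1, which rose after 1 and after 6 sessions, and Egr2, called after 6, lay under the filter limit of 8.93 on every control array. Both passed it through their stressed arrays, so these counts do not stand for all listed genes. Nr4a3, an orphan nuclear receptor, stood 6.17 ± 0.34 above control after 1 session and 6.02 after 6. Ier2 stood 2.23 ± 0.22 and 2.11 above it. Egr1, a zinc finger factor driven by Srf sites, stood 3.41 ± 0.36 above control after 6 sessions and did not differ past the threshold between the stressed groups (0.47 ± 0.36, adjusted p = 0.408). Klf4 went the way of Fosb, 3.38 ± 0.20 above control after 1 session and -2.21 ± 0.20 between the stressed groups. Arc, a synaptic regulator, was 1.12 above control after 1 session and -1.22 ± 0.29 after 6. Between the stressed groups 4 of the 21 were lower in IMO_6x and 0 higher (0 at an unadjusted p under 0.05), beside 6 lower and 1 higher of the 9 Fos and Jun genes and 4.64% lower and 5.35% higher of all genes. Without IMO_6x replicate 1, 7 of the 21 were lower and 1 higher.

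The genes whose levels followed each member most closely were found by Pearson correlation over the 9 arrays among 10624 genes, as a description, since the arrays share group, scaling and RNA quality. Fosb ran with Adamts1 (0.992) and Nkrf (0.988), and Fos with Vom2r53 (0.989) and Lmbr1 (0.983). Atf3 ran with Sik1 (0.990) and Cdkl4 (0.989), and Maff with Ackr3 (0.988) and Calca (0.987). Fosl1 ran with Ccl2 (0.963) and Fam13c (0.952), Fosl2 with Dhx38 (0.963) and Fam13c (0.959), and Junb with Nsd3 (0.992) and Ppp1r10 (0.983). For these 7 members the values lay between 0.952 and 0.992. The closest partners of Jun were Slc23a2 (0.974) and Gng12 (0.968), which dropped to 0.884 and 0.856 without IMO_6x replicate 1. Jund ran with Ifi27l2b (0.994) and Ndufb7 (0.990).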

How the data were processed

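The deposited table holds 1 linear intensity per probe set and array. Trimmed means (2% of values left out at each end) were 2500.57 to 2501.03, so the deposited arrays have equal trimmed means. Median intensities were 910.5 to 1053 in control, 826.3 to 974.7 in IMO_1x and 592.6 to 1583 in IMO_6x. Equal trimmed means thus did not make the arrays alike in other respects. How probes were summarised and background was removed is not given in the sources used here, and per the labels' protocols the labelling was performed by the array maker. Symbols came from the platform annotation, and only probe sets with 1 symbol were kept. Intensities were taken as log2(intensity + 16). Those with the lowest 30% of mean levels were dropped, and 14578 were fitted with limma 3.58.1 in R 4.3.3 (lmFit, eBayes with trend), all 9 arrays in 1 fit with 6 residual degrees of freedom. Tests were two-sided, with a call at a Benjamini-Hochberg adjusted p under 0.05. Gene lists used the brightest probe set of each gene and no set test. The number of arrays limits the precision.

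Members and lists were chosen with earlier results of these data known. Named genes were all members, per list the 3 smallest adjusted p after 1 and after 6 sessions, and per member the 2 genes most like it. Other named list genes were chosen after their values were seen. Same-numbered control and IMO_1x arrays deviated from their group means together (r = 0.606, 0.459 and 0.233 for replicates 1, 2 and 3, although IMO_1x replicate 3 correlated more with control replicate 2, at 0.383), so the replicate number was also fitted as a block. The fit was tested on simulated data with independent noise for each probe set and array. That test does not cover differences across a whole array, such as those of IMO_6x replicate 1. Promoter windows came from RefSeq (GRCr8).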

Additional observations from a re-analysis of the deposited data

How the results depend on the processing

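The 20 alternatives per comparison covered filters, scaling, added constants, weights, the replicate block, the groups fitted and each array left out. Of the member fold changes they gave, 667 kept direction and side of the threshold, 46 lost a call, 21 gained one and 22 changed sign. Where a result moved, the cause was not tested unless fewer probe sets or arrays were fitted. With the dimmest 50% left out, 5, 3 and 5 member probe sets were called after 1 session, after 6 and between the stressed groups, with 9 tested. Leaving out 1 array gave 8 to 9, 4 to 7 and 0 to 10 member calls, and 407 to 3877, 1598 to 6879 and 0 to 4546 over all probe sets. The lowest count came without control replicate 3 or, between the stressed groups, without IMO_1x replicate 3, where 9 member probe sets and 3182 in all had an unadjusted p under 0.05. The highest came without IMO_6x replicate 1. All probe sets gave 591, 2000 and 746 calls with median centring (421 up and 170 down after 1 session, 1292 and 708 after 6, 471 and 275 between the stressed groups) and 5906, 8272 and 6853 with array weights. Fitting only the 2 groups gave 3554, 1886 and 0, and 0 member calls between the stressed groups (10 at an unadjusted p under 0.05). Quantile normalization gave 759 between the stressed groups (400 up and 359 down), and without IMO_6x replicate 1 as well 3822 after 1 session and 2868 between the stressed groups. Its split was 611 up and 371 down after 1 session and 1337 up and 1227 down after 6. The replicate block gave 8, 5 and 6 member calls and 1042, 3608 and 1375 in all, and changed no member call other than those of Fos and Jund given above. Same-numbered arrays of IMO_6x and control correlated at 0.0156 to 0.148 and those of the stressed groups at 0.0597 to 0.109. Arrays of other numbers correlated at -0.154 to 0.129 and at -0.141 to 0.146 in the same order. These values do not settle whether the numbers pair the arrays there.

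The sign changes concerned Jun, Jund and 1 probe set of Fosl2, and none of these values started from a call. Jun 1369788_s_at turned to -0.0706, -0.11 and -0.0435 with quantile normalization in the 3 comparisons and to -0.0662, -0.17 and -0.11 without IMO_6x replicate 1 as well, and with 1 array left out ran from -0.0057 (without control replicate 1) to 0.25 after 1 session. After 6 sessions Jun 1374404_at turned to 0.24 and 1389528_s_at to 0.25 with array weights, and ran from -0.84 to 0.28 and from -0.69 to 0.23 with 1 array left out (highest without IMO_6x replicate 1), while 1389528_s_at turned to 0.13 between the stressed groups with array weights. Jund 1393138_at turned after 1 session to 0.15 with median centring and ran from -0.11 to 0.11 with 1 array left out (highest without IMO_1x replicate 3). Jund 1387762_s_at turned after 6 sessions to -0.35 with array weights. With 1 array left out it ran from -0.26 to 0.57 after 1 session (negative without control replicate 1 or IMO_1x replicate 2), from -0.51 to 0.55 after 6 (negative without control replicate 1 or IMO_6x replicate 1) and from -0.71 to 0.35 between the stressed groups (positive without replicate 2 of IMO_1x or of IMO_6x). Fosl2 1387530_a_at turned to 0.0053 after 6 sessions with quantile normalization without IMO_6x replicate 1. Of the differences between probe sets of one gene, Jun 1374404_at minus 1389528_s_at turned after 6 sessions to 0.34 with quantile normalization and ran from -0.15 to 0.0506 with 1 array left out (positive without control replicate 3 or IMO_6x replicate 1). Jun 1369788_s_at minus 1389528_s_at ran after 1 session from -0.25 to 0.0153 (highest without IMO_1x replicate 1). Jund 1387762_s_at minus 1393138_at turned to 0.0504 after 6 sessions with quantile normalization, and after 1 session ran from -0.18 to 0.60 (negative without control replicate 1 or IMO_1x replicate 2).

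The gene lists were recounted in 3 settings chosen after seeing the data, quantile normalization, leaving out IMO_6x replicate 1, and both. Calls of the other bZIP factors went from 6, 6 and 3 in the 3 comparisons to 12, 13 and 6 without that array and to 13, 10 and 5 with both. The upstream list went after 1 session from 6 to 3, 10 and 10 in the order of the settings, after 6 sessions from 10 to 6 with quantile normalization, and between the stressed groups from 1 to 7 without the array and 4 with both. AP-1 targets went to 13 and 11 against control with both settings, and between the stressed groups from 4 to 9 without the array and 7 with both. The chromaffin list went after 1 session from 3 to 7 without the array and 7 with both, and between the stressed groups from 5 to 1, 8 and 3. The other immediate early genes went between the stressed groups from 4 to 8 and 9.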
